A study of Mus musculus with 21 samples.

Results

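The insulin receptor, Akt and Foxo genes described here are 8 genes of 1 signalling route, Insr, Irs1, Irs2, Pik3ca, Akt1, Akt2, Foxo1 and Foxo3, out of 18193 gene symbols on the array. They were chosen by name, with earlier results of these data known. All their probe sets were taken, 25 of the 45037 that are not controls. The study measured RNA on 21 arrays of mouse heart, 4 from wild-type mice with a sham operation, 6 from wild-type mice with TAC, 5 from G4D mice with a sham operation and 6 from G4D mice with TAC. TAC is banding of the transverse aorta, which puts the heart under pressure load, and sham mice had the operation with no band. The design text describes mice targeted to express less Gata4, a transcription factor of cardiac muscle, compared with and without that load, and G4D was taken to be this genotype. The labels used here give no age, sex, strain background or time after banding, and they do not say how the allele was made or that arrays are separate animals.

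Insulin and the related growth factors bind receptor tyrosine kinases, and the activated receptor phosphorylates the adaptor proteins Irs1 and Irs2. The adaptors recruit PI3-kinase, whose lipid product brings the kinase Akt to the membrane, where other kinases switch it on. Akt phosphorylates the forkhead factors Foxo1 and Foxo3, which then leave the nucleus and no longer transcribe their targets. In heart muscle the route is known for its part in physiological growth, glucose uptake and protein turnover. Most of its steps are changes in phosphorylation, which an RNA array does not read.

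The source label names cardiac myocytes, and the labels do not tell whether these were purified from the heart. Cardiomyocyte markers were bright on every array, with a summed level over 10 genes between 15.71 and 15.82 on the log2 scale. Markers of other heart cells were present too and moved with banding. The summed level of 10 fibroblast markers was 12.71 to 12.81 in wild-type sham, 13.20 to 14.11 in wild-type TAC, 12.66 to 13.21 in G4D sham and 13.47 to 14.43 in G4D TAC, and 7 of the 10 rose with TAC in each genotype. The summed level of 10 macrophage and myeloid markers was 11.22 to 11.34, 11.57 to 12.46, 11.08 to 11.36 and 11.61 to 12.19 in the same order. The 3'-minus-5' difference of the actin control, a sign of how intact the RNA was, lay between 0.437 and 0.667 in wild-type sham and 0.113 and 0.408 in wild-type TAC, and between 0.385 and 0.628 in G4D sham and 0.193 and 0.379 in G4D TAC, so that banded and sham arrays did not overlap in either genotype. The same difference of the Gapdh control did overlap. It ran from -0.33 to 0.11 in wild-type sham and from -0.30 to -0.064 in wild-type TAC. In G4D it ran from -0.42 to -0.23 in sham and from -0.31 to -0.011 after TAC. Its G4D mean rose from -0.33 to -0.18 with TAC, where that of actin fell. G4D sham array 5 stood apart in atrial markers, at 14.28 where the median of its group was 10.84. Array medians as deposited ran from 4.31 to 5.33. Of the G4D TAC arrays, array 4 had the lowest deposited median (4.37), the lowest summed fibroblast markers (13.47) and the highest summed cardiomyocyte markers (15.80). Gata4 itself was not called between the genotypes, at -0.25 ± 0.12 (SE) in sham (limma adjusted p = 0.611) and 0.17 ± 0.10 after TAC (adjusted p = 0.556). Where its probe set lies relative to the targeted change is not given in the sources used here, so this does not check the labels.

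Values are log2 probe-set values after quantile normalization, which gives all arrays the same distribution. A gene was read by its brightest probe set, and was tested when that set was at or above 4.35, the 40th percentile of all probe sets. Of the 8 genes, 7 were tested, and Irs2 was below that level. Of their 25 probe sets, 21 were above it. Over the 13279 genes tested with limma, a gene was called where its p, adjusted by Benjamini-Hochberg, was under 0.05. Changes below are on the log2 scale with their standard error. In whole tissue or a mixed preparation, fewer cells of a type and less RNA per cell cannot be told apart.

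Irs1 and Akt2 fell with banding in wild-type hearts and Akt2 and Foxo3 in G4D hearts, and after banding Akt1 was lower in G4D than in wild type. Those were the 5 calls among the members. In wild type 2 of 7 tested members were called lower and 0 higher, where 7.35% of all genes were called in either direction and 2.16% of all genes lower. In G4D 2 of 7 were called lower and 0 higher, where 22.5% of all genes were called in either direction and 9.32% of all genes lower. After TAC 1 of 7 was called lower in G4D, beside 3.36% of all genes. In sham 0 of 7 were called, beside 0.0527% of all genes, and 2 members had an unadjusted p under 0.05, as did 8.09% of all genes. For the interaction, which is the change with TAC in G4D minus the change with TAC in wild type, 0 of 7 members were called, beside 0.0151% of all genes, and 1 had an unadjusted p under 0.05, as did 8.36% of all genes. The median change of the 7 was -0.087 in wild type and -0.21 in G4D, where that of all genes was -0.023 and -0.024. No member was called on the values as deposited or on arrays only centred on their medians, although each of the 5 calls kept its direction there.

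**Figure D1:**
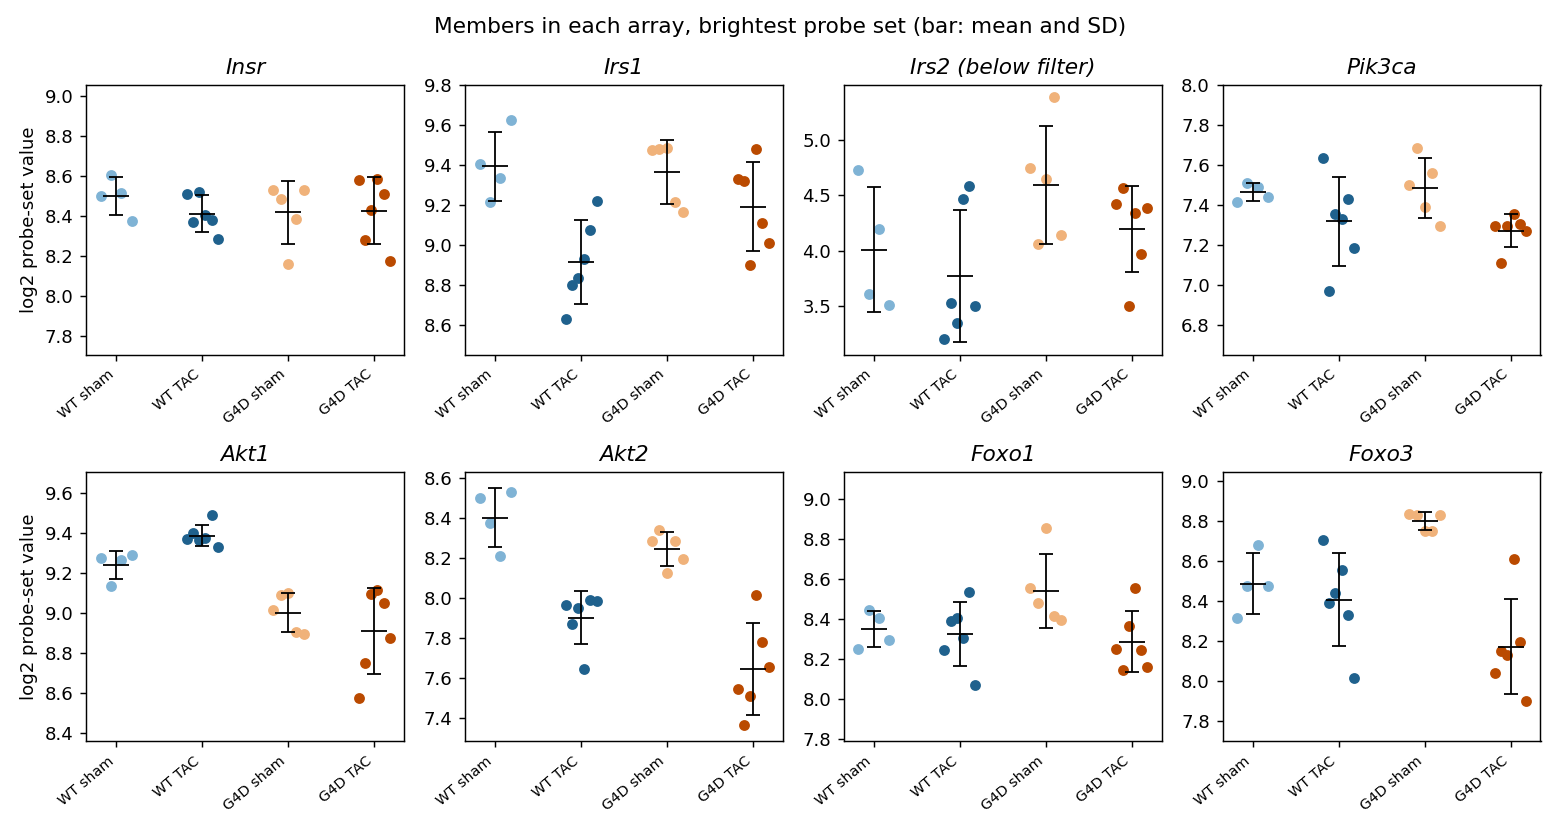
Each panel plots the log2 value of a gene's brightest probe set on every array (points) for the 4 groups, with the group mean and SD (bars); panels span the same height except Irs2, whose values spread more. Akt2 lies lower in both TAC groups, Akt1 lies lower in both G4D groups, and G4D sham stands highest for Foxo3.

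Insr, the insulin receptor, held nearly the same level in the 4 groups. Its brightest probe set (1434446_at) read 8.50, 8.61, 8.52 and 8.38 in the wild-type sham arrays. The wild-type TAC arrays ran from 8.29 through a median of 8.39 to 8.52. The G4D sham arrays read 8.53, 8.49, 8.16, 8.39 and 8.53, and the G4D TAC arrays ran from 8.17 through 8.47 to 8.59. All groups overlapped, and the group means lay in the order wild-type sham, G4D TAC, G4D sham and wild-type TAC with steps of 0.072, 0.0092 and 0.0053. TAC changed Insr by -0.087 ± 0.094 in wild type (95% interval -0.28 to 0.11) and by 0.0093 ± 0.088 in G4D (-0.17 to 0.19). G4D differed from wild type by -0.082 in sham (interval -0.28 to 0.12) and by 0.014 after TAC (-0.16 to 0.19). The other probe sets of Insr were dimmer, at means of 5.53 and 4.96, and neither was called in any comparison.

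Irs1, the first adaptor below the receptor, fell with TAC in wild type. Its only probe set (1423104_at) read 9.41, 9.21, 9.33 and 9.62 in the wild-type sham arrays. In wild-type TAC it ran from 8.63 through a median of 8.88 to 9.22. The highest banded array just reached the lowest sham array, and the other banded arrays lay below all sham arrays. The change was -0.48 ± 0.13 (adjusted p = 0.0227). This call was lost without wild-type sham array 1 (-0.48, adjusted p = 0.063), sham array 4 (-0.40, 0.0955) or TAC array 1 (-0.42, 0.0513), and its adjusted p was 0.066 in a second fit, of all 45037 probe sets.

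The G4D sham arrays read 9.48, 9.48, 9.48, 9.21 and 9.16 for Irs1, and the G4D TAC arrays ran from 8.90 through 9.21 to 9.48. Those groups overlapped over most of their range. TAC changed Irs1 by -0.17 ± 0.12 in G4D (interval -0.42 to 0.07, adjusted p = 0.321), and the difference between the genotypes' TAC effects was 0.31 ± 0.17 (interval -0.05 to 0.67, adjusted p = 0.681). After TAC, Irs1 stood 0.28 ± 0.11 higher in G4D than in wild type, which did not pass (adjusted p = 0.246). The order of the means was wild-type sham, G4D sham, G4D TAC and wild-type TAC, and each group overlapped the next.

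Irs2, the other adaptor and a gene reported to be transcribed by Foxo factors, was dim. Its only probe set (1443969_at) had a mean of 4.13. It read 4.72, 3.61, 4.19 and 3.51 in wild-type sham and 4.74, 4.06, 4.65, 5.39 and 4.14 in G4D sham. In wild-type TAC it ran from 3.20 through 3.51 to 4.58, and in G4D TAC from 3.50 through 4.36 to 4.56. The spread within groups, with SDs between 0.39 and 0.60, was as large as most differences between them. In the fit of all probe sets the TAC effect was -0.24 (interval -0.92 to 0.44) in wild type and -0.40 (-1.04 to 0.24) in G4D, and G4D stood 0.59 (-0.12 to 1.29) above wild type in sham.

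The sequence upstream of both adaptor genes is shown because each holds the letters TGTTTTG, the core of the insulin response element through which Foxo factors are known to act, close to CACGTG, an E-box. Both windows are the 250 bases before the gene's start in RefSeq on build GRCm38.p6, on the minus strand. They are written 5′ to 3′ with TGTTTTG and CACGTG in capitals. Irs1 lies at chr1:82291440-82291689 and Irs2 at chr8:11008930-11009179.
Irs1: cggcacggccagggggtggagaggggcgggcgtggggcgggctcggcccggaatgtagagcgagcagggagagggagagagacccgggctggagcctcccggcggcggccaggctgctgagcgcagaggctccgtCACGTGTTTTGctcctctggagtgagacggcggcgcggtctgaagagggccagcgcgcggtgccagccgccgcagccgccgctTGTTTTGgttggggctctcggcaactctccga
Irs2: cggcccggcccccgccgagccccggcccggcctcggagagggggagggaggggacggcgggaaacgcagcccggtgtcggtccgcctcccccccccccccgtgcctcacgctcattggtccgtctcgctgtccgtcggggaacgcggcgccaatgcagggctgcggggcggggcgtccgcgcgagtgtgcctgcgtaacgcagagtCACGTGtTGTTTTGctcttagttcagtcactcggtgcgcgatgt
In Irs1 the first TGTTTTG begins 111 bases before the start and overlaps the E-box, which begins at 115 bases, and another begins at 32 bases. In Irs2 the E-box begins 44 bases and TGTTTTG 37 bases before the start, with 1 base between them. Among 32851 windows of the same length in the RefSeq table, 5.561% held TGTTTTG or its reverse complement CAAAACA, 6.021% held CACGTG, which is its own reverse complement, and 0.295% held both. These letters were chosen for the search after the sequences had been seen, and a match is a description of the sequence only.

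Pik3ca encodes the catalytic subunit alpha of PI3-kinase. Its brightest probe set (1460326_at) read 7.41, 7.51, 7.49 and 7.44 in wild-type sham and 7.50, 7.68, 7.39, 7.56 and 7.29 in G4D sham. It ran from 6.97 through 7.34 to 7.63 in wild-type TAC and from 7.11 through 7.29 to 7.35 in G4D TAC. The banded arrays reached lower than the sham arrays, but neighbouring groups overlapped. TAC changed it by -0.15 ± 0.10 in wild type (interval -0.36 to 0.06) and by -0.21 ± 0.10 in G4D (interval -0.41 to -0.02, adjusted p = 0.116). The genotypes differed by 0.02 in sham (-0.20 to 0.24) and by -0.046 after TAC (-0.24 to 0.14). Of 6 probe sets for Pik3ca, 3 share 1 source transcript record and so do not stand as separate readings. In G4D those 3 had TAC changes above 0 while the others were below 0, and none of the 6 was called.

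Akt1, the Akt kinase known for its part in growth and survival, was lower in G4D than in wild type after TAC. Its brightest probe set (1416657_at) ran from 9.33 through a median of 9.37 to 9.49 in wild-type TAC and from 8.57 through 8.96 to 9.12 in G4D TAC. Those groups did not overlap, as held for 0.836% of all genes in the lower direction. The difference was -0.48 ± 0.084 (adjusted p = 0.00234), with estimates between -0.52 and -0.41 when each array was left out in turn. The next probe set (1425711_a_at) gave -0.59 ± 0.15 in the fit of all probe sets, where its adjusted p was 0.0772. The third gave -0.097, and the fourth, at a mean of 3.32, gave 0.26 in the other direction. All sets other than the brightest overlapped between the groups. With the mean of all probe sets in place of the brightest the difference was -0.22 (adjusted p = 0.102).

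The wild-type sham arrays read 9.28, 9.14, 9.26 and 9.29 for Akt1, and the G4D sham arrays read 9.01, 9.09, 9.10, 8.90 and 8.90. On this brightest set the G4D arrays lay lower here too, with no overlap, as held for 1.66% of all genes. The difference in sham was -0.24 ± 0.097 (interval -0.44 to -0.04), was not called (adjusted p = 0.504) and lay between -0.28 and -0.22 when each array was left out in turn. TAC changed Akt1 by 0.15 ± 0.094 in wild type (adjusted p = 0.426), where all banded arrays stood above all sham arrays, as held for 6.36% of all genes, and by -0.091 ± 0.088 in G4D (adjusted p = 0.497), where they overlapped. The difference of those effects was -0.24 ± 0.13 (interval -0.50 to 0.03, adjusted p = 0.665). The order of the means was wild-type TAC, wild-type sham, G4D sham and G4D TAC, and only the last neighbours overlapped. After TAC the summed fibroblast markers ranged from 13.20 to 14.11 in wild type and 13.47 to 14.43 in G4D, 2 of the 10 being called higher in G4D, and their part in the Akt1 difference was not tested.

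Of the 11 upstream windows found for 7 of the members, 1 held the forkhead motif GTAAACA or its reverse complement TGTTTAC, beside 3.166% of all windows. It belongs to a start of Akt1 at chr12:112674885-112675134, on the minus strand of GRCm38.p6, in RefSeq. It is printed 5′ to 3′ because the motif is the known binding sequence of the Foxo factors at the end of this route, with the match in capitals, 161 bases before the start.
Akt1: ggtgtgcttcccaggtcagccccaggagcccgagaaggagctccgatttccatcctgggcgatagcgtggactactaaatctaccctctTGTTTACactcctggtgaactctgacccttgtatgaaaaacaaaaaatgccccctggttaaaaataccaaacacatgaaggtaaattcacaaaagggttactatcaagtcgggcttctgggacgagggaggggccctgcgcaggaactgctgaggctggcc
The window of the other Akt1 start, and those of Akt2, Pik3ca, Foxo1 and Foxo3, did not hold the motif.

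Akt2, the Akt kinase known for insulin-dependent glucose uptake, fell with TAC in both genotypes. Its brightest probe set (1424480_s_at) read 8.50, 8.37, 8.21 and 8.53 in wild-type sham. It ran from 7.65 through 7.96 to 7.99 in wild-type TAC. Every banded array lay below every sham array, as held for 4.12% of all genes. The change was -0.50 ± 0.11 (adjusted p = 0.00611). In G4D sham the set read 8.29, 8.34, 8.13, 8.28 and 8.19, and in G4D TAC it ran from 7.37 through 7.60 to 8.02. Here too the groups did not overlap, as held for 3.38% of all genes, and the change was -0.60 ± 0.10 (adjusted p = 0.000206).

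Leaving out any 1 array kept both Akt2 calls, with estimates between -0.57 and -0.45 in wild type and between -0.67 and -0.54 in G4D. Without G4D sham array 5 the change in G4D was -0.61 (adjusted p = 0.000495). The second probe set (1421324_a_at) gave -0.68 ± 0.17 in G4D, called in the fit of all probe sets (adjusted p = 0.0162, beside 8.97% of all probe sets), and -0.32 ± 0.18 in wild type, not called (adjusted p = 0.562). The third, at a mean of 4.45, gave -0.24 and -0.35. With the mean of the 3 sets, the wild-type change was -0.35 (adjusted p = 0.0851). The TAC effects of the genotypes differed by -0.10 ± 0.15 (interval -0.41 to 0.21, adjusted p = 0.925). After TAC, Akt2 stood -0.26 ± 0.096 from wild type in G4D and was not called (adjusted p = 0.188), but without G4D TAC array 4, the highest of its group, it was (-0.33, adjusted p = 0.0283).

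The 3'-minus-5' actin difference moved with TAC in the same arrays, as did the fibroblast and macrophage markers given above. With that actin difference as a covariate the Akt2 change was -0.51 in wild type (adjusted p = 0.0514), and the call in G4D was kept. The part of the markers in these changes was not tested. On the values as deposited, where the median gene rose by 0.31 with TAC in G4D, Akt2 stood at -0.18 (adjusted p = 0.6), or -0.48 relative to that median. In wild type, where the median gene stood at -0.096, it was -0.58 (adjusted p = 0.517), or -0.49 relative to the median.

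**Figure D2:**
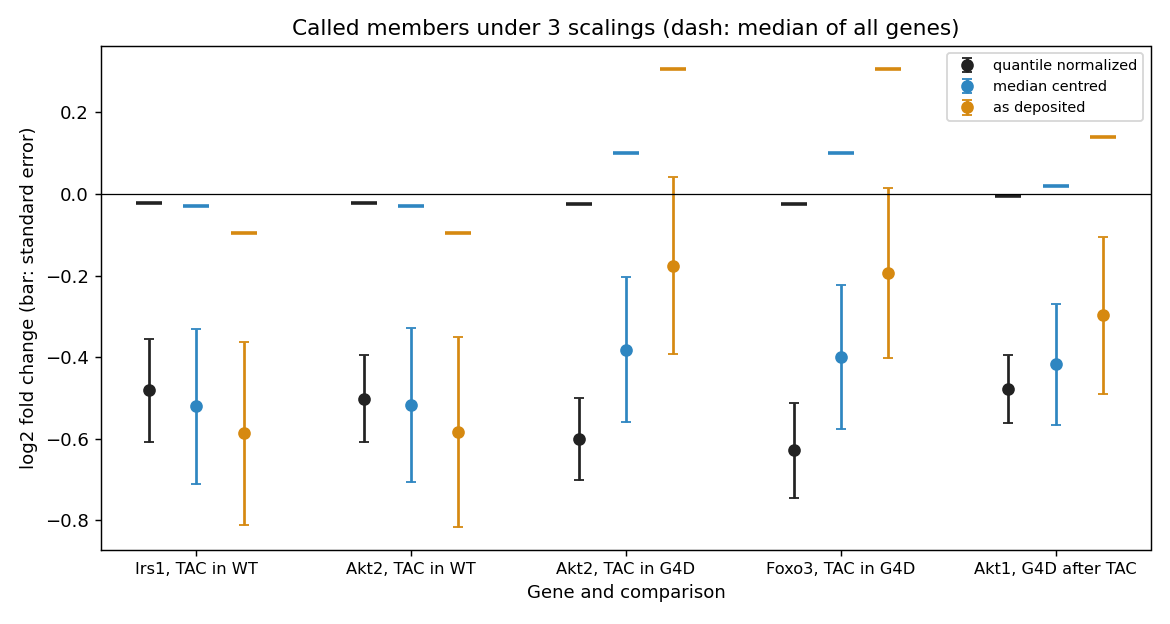
The log2 change with its SE for the 5 called members under quantile normalization, arrays centred on their medians, and values as deposited (points and bars), with the median change of all genes under the same scaling (dashes). Every point stays below 0 and below its dash, while the distance to 0 and the SE depend on the scaling, and only the quantile normalized values were called.

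Foxo1, a forkhead factor that Akt holds out of the nucleus, was level in wild type and lower, short of the test, in banded G4D hearts. Its brightest probe set (1416981_at) read 8.25, 8.44, 8.40 and 8.30 in wild-type sham and 8.56, 8.48, 8.85, 8.42 and 8.40 in G4D sham. It ran from 8.07 through 8.35 to 8.54 in wild-type TAC and from 8.15 through 8.25 to 8.56 in G4D TAC. All groups overlapped. The TAC change was -0.023 ± 0.10 in wild type (interval -0.24 to 0.19) and -0.25 ± 0.098 in G4D (interval -0.46 to -0.05, adjusted p = 0.0678). The G4D change was called without G4D TAC array 4 (-0.31, adjusted p = 0.0214). The next 2 sets gave -0.26 and -0.19 in G4D, while the dimmest, at a mean of 5.11, gave 0.54 ± 0.20 in the other direction (adjusted p = 0.105 over all probe sets).

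Foxo3, the related forkhead factor, fell with TAC in G4D and not in wild type, though the difference between those effects did not pass the test. Its brightest probe set (1434831_a_at) read 8.84, 8.83, 8.75, 8.75 and 8.83 in G4D sham. It ran from 7.90 through 8.14 to 8.61 in G4D TAC. All banded arrays lay below all sham arrays, as held for 3.38% of all genes. The change was -0.63 ± 0.12 (adjusted p = 0.000522). G4D TAC array 4 was the highest of its group here, as on the brightest set of each other tested member. Without it the Foxo3 change was -0.71. Without G4D sham array 5 it was -0.62 (adjusted p = 0.00151). The second probe set (1434832_at) gave -0.68 ± 0.14 (adjusted p = 0.00354 over all probe sets).

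The wild-type sham arrays read 8.32, 8.48, 8.68 and 8.48 for Foxo3, and the wild-type TAC arrays ran from 8.02 through 8.42 to 8.71. These groups overlapped almost wholly. The change was -0.081 ± 0.12 (interval -0.34 to 0.18, adjusted p = 0.784). The G4D effect less the wild-type effect was -0.55 ± 0.17 (interval -0.90 to -0.19, unadjusted p = 0.0041), which was not called over all genes (adjusted p = 0.311). The second set gave -0.59 ± 0.20 for the same difference. The third, dim and below the filter, gave 0.82 ± 0.21 in the other direction (limma unadjusted p = 0.000757, adjusted p = 0.438 over all probe sets).

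The starting levels lay apart on the brightest set, short of the test. In sham, all 5 G4D arrays stood above all wild-type arrays there, as held for 1.24% of all genes. The difference was 0.31 ± 0.13 (interval 0.04 to 0.58, adjusted p = 0.515, not called), and lay between 0.25 and 0.38 when each array was left out in turn. The second set gave 0.31 ± 0.15 in sham, and the third gave -0.27 ± 0.16, the other way. After TAC, G4D stood at -0.24 ± 0.11 from wild type (adjusted p = 0.357). The order of the Foxo3 means was G4D sham, wild-type sham, wild-type TAC and G4D TAC, and only G4D sham stood clear of its neighbour. On the values as deposited the sham difference was -0.034 and the G4D change -0.19 (adjusted p = 0.539), or 0.24 and -0.50 relative to the median of all genes, which stood at -0.28 and 0.31. With the actin difference as a covariate, the G4D change was -0.40 (adjusted p = 0.0523). Fibroblast and macrophage marker sums were higher in all banded than in all sham G4D arrays, as given above, and their part was not tested.

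The third Foxo3 probe set (1450236_at) read another pattern. It was dim, at a mean of 4.17 and under the filter. In wild type it read 4.31 to 4.49 in sham and 3.51 to 4.14 after TAC, a change of -0.61 ± 0.15 that was called in the fit of all probe sets (adjusted p = 0.0381, beside 2.02% of all probe sets). In G4D it changed by 0.21 ± 0.14, opposite in sign to the other pair of sets. After TAC it stood 0.56 ± 0.13 higher in G4D (adjusted p = 0.0584), where they stood lower. Which Foxo3 transcripts each set reads is not given in the sources used here.

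**Figure D3:**
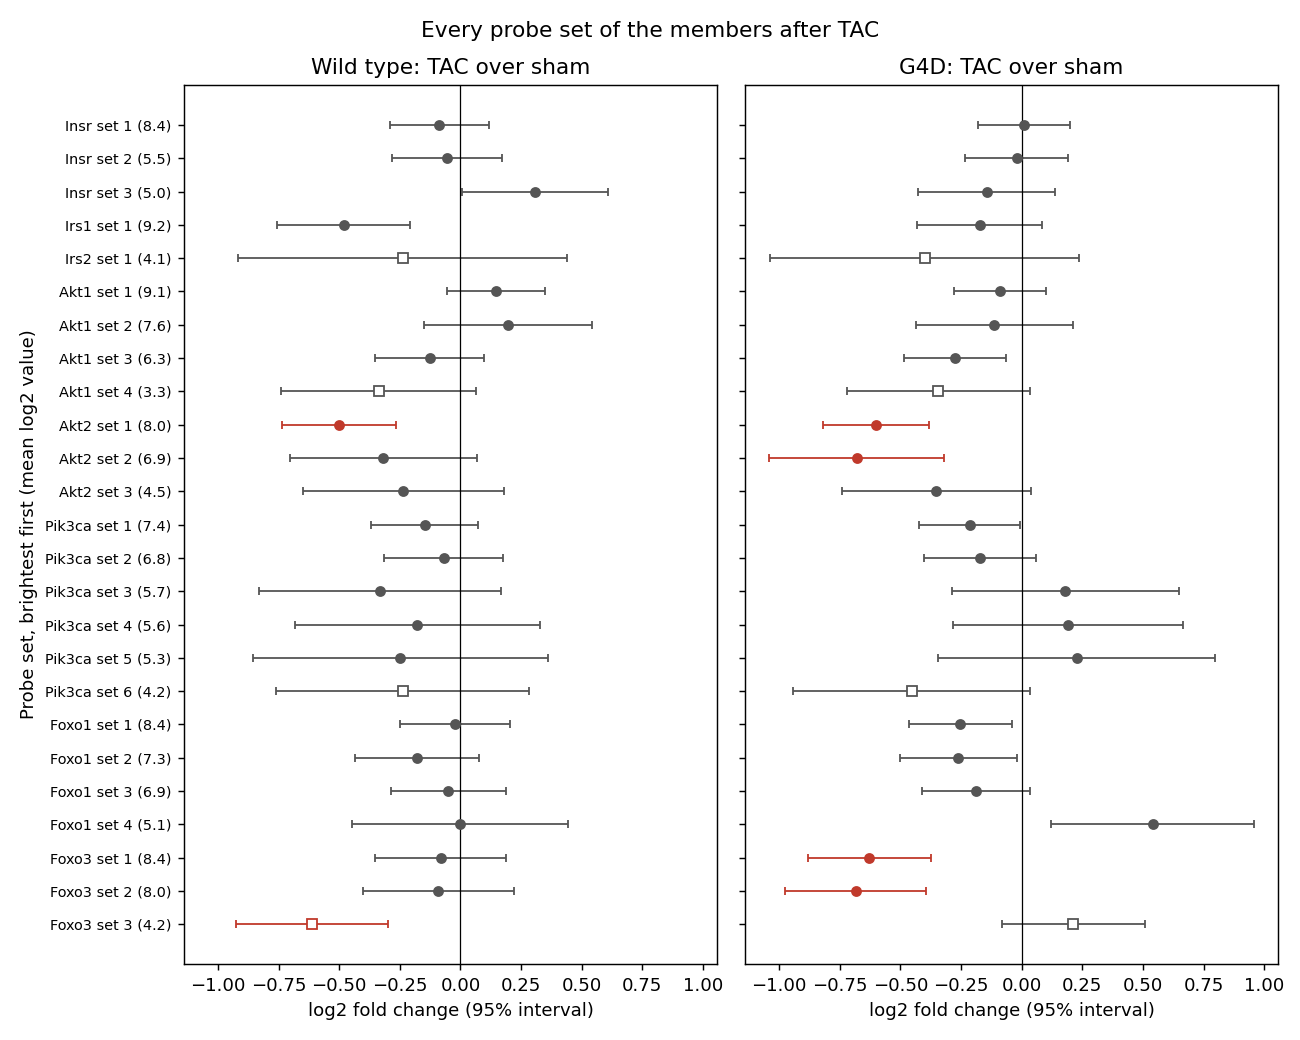
Every probe set of the 8 genes, brightest first within a gene, with its log2 change from sham to TAC and 95% interval in wild type (left) and G4D (right); open squares are sets below the filter, and red marks sets called when all probe sets were fitted. Of the 25 sets, 22 lie below 0 in wild type and 19 in G4D. The share of all probe sets below 0 was not taken, and sets of the same gene are not separate readings. In wild type 2 are called lower and in G4D 4, all from Akt2 and Foxo3, and 0 are called higher. Of all probe sets, 2.02% were called in wild type and 8.97% in G4D, in either direction.

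Genes whose levels ran most like a member's over the 21 arrays were taken from all tested genes by Pearson's r. Nearest to Akt2 were Ech1 (r = 0.937), an enzyme of fatty acid oxidation, Cmtm8 (0.935) and Grcc10 (0.934). With the group means removed these fell to 0.726, 0.817 and 0.752. Nearest to Foxo3 were Slc46a3 (0.912), Slc25a26 (0.889), a mitochondrial carrier, and Sult1a1 (0.886), and with group means removed 0.807, 0.749 and 0.726. For Akt1 they were Ndufb11 (0.817), a subunit of respiratory complex I, Prepl (0.811) and Glrx (0.811), of which Glrx kept 0.232 and Prepl 0.466 within groups while Ndufb11 kept 0.794. Irs1 ran with St3gal5 (0.797), Kif21a (0.796) and Alpl (0.781). Foxo1 ran with Bsdc1 (0.856), Nomo1 (0.833) and Letm2 (0.819). Pik3ca ran with Ube2r2 (0.790), Pdp2 (0.772) and Art5 (0.759), and Insr with Zfp14 (0.768), Sgip1 (0.745) and Sema3e (0.703). All genes share the arrays, their normalization and the 4 groups.

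The rest of the pathway was read from 7 lists with 91 genes, of which 86 had a probe set and 82 were tested. At the receptor level, 3 of 10 tested genes rose with TAC in wild type, and 3 rose and 2 fell in G4D. Of all genes, 7.35% were called with TAC in wild type and 22.5% in G4D, and 70.6% and 58.6% of those calls were higher. Socs3, an inhibitor of receptor signalling that cytokines induce, rose by 1.12 ± 0.25 in wild type (adjusted p = 0.0082) and by 1.38 ± 0.23 in G4D (adjusted p = 0.000236). Igf1, insulin-like growth factor, rose by 0.75 ± 0.20 (adjusted p = 0.0244) and 1.15 ± 0.19 (adjusted p = 0.00015). Grb10, an adaptor that restrains the receptor, rose by 0.37 ± 0.088 (adjusted p = 0.0119) and 0.51 ± 0.082 (adjusted p = 0.000149). Igf2 fell by 0.65 ± 0.16 in G4D (adjusted p = 0.00609). After TAC, Igf1 was higher in G4D by 0.67 ± 0.18 (adjusted p = 0.039). The list medians were -0.22 in wild type and -0.14 in G4D, below 0 although the called changes were mostly rises.

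Those calls differed in how firmly they held. Socs3, Igf1 and Grb10 in G4D kept their calls on the values as deposited, but Grb10 lost it with the mean of its probe sets (0.11, adjusted p = 0.648). Igf2 in G4D lost its call on the values as deposited (-0.24, adjusted p = 0.454), with the mean of its probe sets (-0.46, adjusted p = 0.185) and with the actin covariate (-0.62, adjusted p = 0.0607). On the values as deposited the wild-type calls of Socs3 (1.06, adjusted p = 0.119), Igf1 (0.68, adjusted p = 0.441) and Grb10 (0.27, adjusted p = 0.977) were lost, as was that of Igf1 after TAC (0.85, adjusted p = 0.101). With the mean of probe sets Socs3 in wild type stood at 0.60 (adjusted p = 0.141) and Grb10 at 0.24 (adjusted p = 0.421). In wild type, leaving out TAC array 4 gave 0.66 for Igf1 (adjusted p = 0.0652), and it lost its call also without sham array 1 (0.67, 0.0907), 2 (0.74, 0.0609) or 4 (0.69, 0.0809) or TAC array 1 (0.70, 0.0514). Grb10 in wild type lost its call without sham array 1 (0.32, adjusted p = 0.063). With the actin covariate Socs3 in wild type stood at 0.85 (adjusted p = 0.157). The higher Igf1 of banded G4D lost its call when any of 9 arrays was left out (wild-type TAC arrays 2, 3, 5 and 6, G4D TAC arrays 1, 2, 3, 5 and 6), with adjusted p up to 0.103; over all arrays left out in turn it lay between 0.56 and 0.77.

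Among 11 adaptors and PI3-kinase subunits, 0 were called in wild type, and 3 rose and 2 fell in G4D. Of all genes, 7.35% and 22.5% were called. Pik3r1, the main regulatory subunit of PI3-kinase, fell by 0.55 ± 0.12 (adjusted p = 0.00225), and Gab1, a docking protein, by 0.53 ± 0.13 (adjusted p = 0.00404). Pik3cb, the catalytic subunit beta, rose by 0.48 ± 0.11 (adjusted p = 0.00353) and the adaptor Shc1 by 0.38 ± 0.085 (adjusted p = 0.00284). Pik3cb and Shc1 were called also on the values as deposited, Pik3r1 and Gab1 were not, at -0.11 and -0.098. With the mean of its probe sets Shc1 stood at 0.23 and was not called (adjusted p = 0.157). Shc1 and Pik3r1 lost their calls with the actin covariate (0.33 and -0.34, adjusted p = 0.0569 and 0.128). In wild type Shc1, with the smallest p of its list, stood at 0.21 ± 0.091 (adjusted p = 0.184).

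Of 9 genes for kinases that act on Akt and for the mTOR complexes, 0 were called in wild type and 2 fell in G4D. The shares of all genes called were 7.35% and 22.5%. Deptor, an inhibitor of mTOR, fell by 0.39 ± 0.11 (adjusted p = 0.0164). Akt1s1, an Akt substrate of the mTOR complex, fell by 0.27 ± 0.084 (adjusted p = 0.0253). Akt1s1 turned to 0.16 on the values as deposited, where Deptor stood at -0.056 (adjusted p = 0.865), and with the mean of probe sets neither was called (-0.29 for Deptor and -0.23 for Akt1s1, adjusted p = 0.2 and 0.328). Deptor stood at -0.30 without G4D sham array 3 (adjusted p = 0.0589), and Akt1s1 lost its call without G4D sham array 2 (-0.25, 0.0589) or 3 (-0.25, 0.0635) or G4D TAC array 2 (-0.25, 0.0528) or 3 (-0.24, 0.0571). Of 9 phosphatases and other brakes, 0 were called in wild type and 2 in G4D, beside the same shares of all genes. In G4D Inpp5d, a lipid phosphatase found mainly in blood cells, rose by 0.48 ± 0.14 (adjusted p = 0.0167) and Trib1 fell by 0.42 ± 0.15 (adjusted p = 0.0465). Trib1 was dim, with means of 4.62 in wild-type sham, 4.34 in wild-type TAC, 4.49 in G4D sham and 4.07 in G4D TAC. Only its sham means lay above the filter, and this test uses G4D sham, so the Trib1 call cannot count as support. All 10 macrophage and myeloid markers rose with TAC in G4D, and their part in the Inpp5d change was not tested. Inpp5d lost its call with the mean of its probe sets (0.17, adjusted p = 0.421) and without G4D sham array 3 (0.36, adjusted p = 0.0608). Trib1 lost its call on the values as deposited (-0.23, adjusted p = 0.426) and with the actin covariate (-0.35, adjusted p = 0.256), and also when any of 7 arrays was left out (wild-type TAC arrays 1 and 3, G4D TAC arrays 1, 2, 3, 5 and 6), with values between -0.46 and -0.35 and adjusted p up to 0.107 over the 10 arrays whose removal left it above the filter.

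Of 13 Akt substrates and outputs of the mTOR complex, 1 rose and 1 fell with TAC in wild type and 2 fell in G4D. Of all genes, 7.35% and 22.5% were called, 2.16% and 9.32% lower. Slc2a4, the insulin-responsive glucose transporter, fell by 0.39 ± 0.10 in wild type (adjusted p = 0.024) and by 0.48 ± 0.097 in G4D (adjusted p = 0.00126). Its wild-type call was lost without sham array 1 (-0.37, 0.0779) or 2 (-0.36, 0.076) or TAC array 4 (-0.36, 0.0611), and with the actin covariate it stood at -0.25 in wild type and -0.32 in G4D (adjusted p = 0.351 and 0.0756). Pfkfb2, which makes the activator of glycolytic phosphofructokinase and is an Akt substrate in heart, fell by 0.61 ± 0.12 in G4D (adjusted p = 0.00108). After TAC it was lower in G4D than in wild type, at a difference of -0.48 ± 0.12 (adjusted p = 0.0251), while its interaction of -0.62 ± 0.18 was not called (adjusted p = 0.279). The difference after TAC lost its call without wild-type TAC array 5 (-0.41, 0.0568) or G4D TAC array 1, 2, 3 or 6, with adjusted p up to 0.0645. Eif4ebp1, a brake on translation, rose by 0.52 ± 0.13 in wild type (adjusted p = 0.0181), a call lost without sham array 1 (0.47, 0.073) or 2 (0.44, 0.0785) and on the values as deposited (0.43, adjusted p = 0.953). There the calls of Slc2a4 in wild type (-0.51, adjusted p = 0.625) and G4D (-0.06, adjusted p = 0.86) and of Pfkfb2 with TAC in G4D (-0.20, adjusted p = 0.524) and after TAC (-0.31, adjusted p = 0.926) were lost too. With the mean of probe sets Slc2a4 in wild type stood at -0.41 (adjusted p = 0.0599) and Pfkfb2 after TAC at -0.36 (adjusted p = 0.0841), and with the actin covariate Pfkfb2 after TAC stood at -0.46 (adjusted p = 0.0513).

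**Figure D4:**
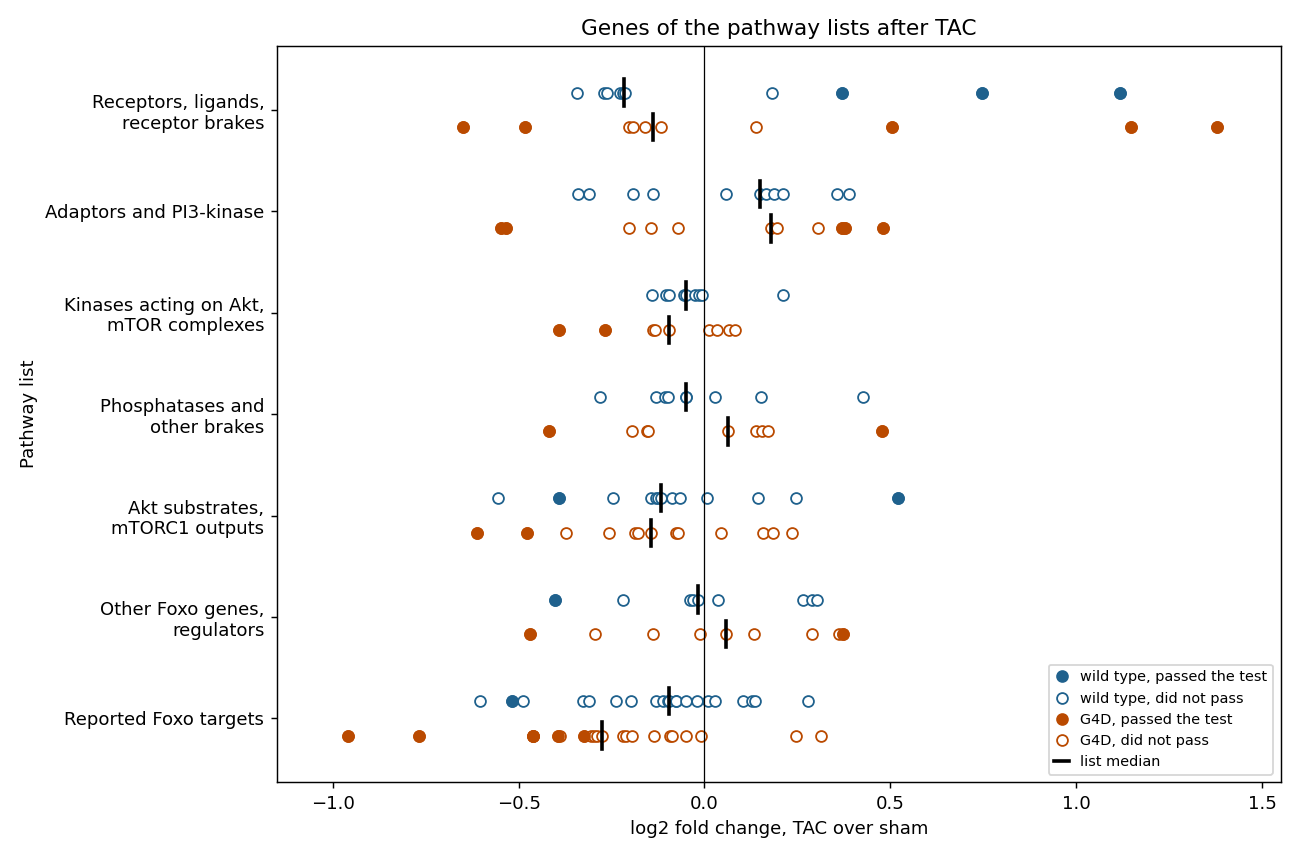
The log2 change from sham to TAC of every tested gene of the 7 pathway lists (horizontal axis) in wild type (blue) and G4D (orange); filled points passed the test, and black bars are list medians. The reported Foxo targets, a list chosen with earlier results known, have 6 called genes in G4D, all below 0, where 9.32% of all genes were called lower. Their median is -0.28, beside -0.024 for all genes. Pck1 among them passed the filter only through its level in G4D sham.

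Among 9 other Foxo genes and Foxo regulators, 1 fell in wild type, and 1 rose and 1 fell in G4D. Of all genes, 7.35% and 22.5% were called. Foxo4, another Foxo factor, fell by 0.40 ± 0.12 in wild type (adjusted p = 0.0403) and by 0.47 ± 0.11 in G4D (adjusted p = 0.00392). Its probe sets disagreed, and with their mean the changes were -0.017 and -0.19 (adjusted p = 0.982 and 0.521). The calls were lost also with the actin covariate (-0.32 and -0.39, adjusted p = 0.303 and 0.0825) and on the values as deposited (-0.46 and -0.076, adjusted p = 0.659 and 0.804). The wild-type call was lost when any of 7 arrays was left out (sham arrays 1, 2 and 3, TAC arrays 2, 3, 4 and 6), with adjusted p up to 0.121; over all arrays left out in turn it lay between -0.48 and -0.36. Ywhab, a 14-3-3 protein of the kind that binds phosphorylated Foxo, rose by 0.37 ± 0.085 in G4D (adjusted p = 0.0032), and by the mean of its probe sets stood at 0.23 (adjusted p = 0.0812).

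Of 21 tested genes reported as Foxo targets, 1 fell with TAC in wild type and 6 fell in G4D, with 0 higher in either, where 2.16% and 9.32% of all genes were called lower. This list, like the others, was chosen with earlier results of these data known, so the counts are a description only. The list medians were -0.095 and -0.28. In G4D, Pck1, an enzyme of gluconeogenesis, fell by 0.96 ± 0.25 (adjusted p = 0.00852), from a dim level of 5.01 ± 0.68 (SD, n = 5) to 4.05 ± 0.41 (SD, n = 6). Pck1 passed the filter only through its level in G4D sham, a group that this test uses, so its call cannot count as support. Bcl2l11, the pro-apoptotic protein Bim, fell by 0.77 ± 0.17 (adjusted p = 0.00225). Trim63, the muscle ubiquitin ligase MuRF1, fell by 0.46 ± 0.090 (adjusted p = 0.000848), from 10.47 ± 0.18 to 10.01 ± 0.06. Txnip, an inhibitor of glucose uptake, fell by 0.46 ± 0.17 (adjusted p = 0.0489), but its call was kept only without wild-type sham array 2, wild-type TAC array 1, 5 or 6 or G4D TAC array 5; it was lost without any of the other 16 arrays, with adjusted p up to 0.116, and over all arrays left out in turn it lay between -0.53 and -0.37. None of these 4 was called on the values as deposited, where they stood at -0.75, -0.38, -0.035 and -0.05, or -1.06, -0.68, -0.34 and -0.36 relative to the median of all genes. With the actin covariate the calls of Pck1 (-0.98, adjusted p = 0.0589), Bcl2l11 (-0.58, adjusted p = 0.0808) and Txnip (-0.14, adjusted p = 0.699) were lost, and that of Trim63 was kept. Without G4D sham array 5, Bcl2l11 stood at -0.73 (adjusted p = 0.00672), Trim63 at -0.51 (adjusted p = 0.000634) and Txnip at -0.49 (adjusted p = 0.0563), and Pck1 was below the filter and not tested.

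In wild type the call was Cited2, a transcriptional co-regulator, at -0.52 ± 0.14 (adjusted p = 0.027). It was lost without sham array 2 (-0.52, 0.0618), 3 (-0.45, 0.102) or 4 (-0.46, 0.096) or TAC array 4 (-0.48, 0.0674) or 6 (-0.44, 0.055). After TAC, Trim63 was lower in G4D, at a difference of -0.36 ± 0.086 (adjusted p = 0.0231), and Bcl6, a transcriptional repressor, was higher by 0.69 ± 0.17 (adjusted p = 0.0251). Trim63 lost its call without wild-type TAC array 3 (-0.31, 0.0634) or 6 (-0.34, 0.0558) or G4D TAC array 3 (-0.33, 0.052), and Bcl6 when any of 6 arrays was left out (wild-type TAC arrays 1, 2 and 6, G4D TAC arrays 1, 2 and 3), with values down to 0.58 and adjusted p up to 0.0711. On the values as deposited none of these 3 calls was kept, at -0.60 for Cited2 (adjusted p = 0.618), -0.16 for Trim63 (adjusted p = 0.926) and 0.85 for Bcl6 (adjusted p = 0.141). With the mean of probe sets Cited2 stood at -0.57 (adjusted p = 0.0501) and Bcl6 at 0.48 (adjusted p = 0.0645), and with the actin covariate at -0.41 (adjusted p = 0.263) and 0.66 (adjusted p = 0.0502). In sham the smallest p of the list was that of Gabarapl1, an autophagy gene, which stood 0.49 ± 0.10 higher in G4D and was not called (adjusted p = 0.0737). The interaction was largest for Pck1, at -1.24 ± 0.37, and not called (adjusted p = 0.295). Pck1 passed the filter only through G4D sham, a group that this comparison uses. No list gene was called in sham or for the interaction. The TAC comparison in G4D shares its sham or TAC arrays with the comparisons of the genotypes, so the values above are not separate readings.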

How the data were processed

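RNA from 21 mouse heart samples was read on oligonucleotide arrays, and groups were taken from the sample titles. The deposited values are on a log2 scale, inferred from their range (-13.5 to 15.1), 1 value per probe set and array. The authors made them with PLIER, which summarises the probes of a set, per the submitters' processing notes; its version, background step and normalization are not given in the sources used here. Of 45101 probe sets, 64 controls were left out before quantile normalization between arrays. Of the rest, 34945 carried exactly 1 gene symbol in the platform annotation, 932 several and 9160 none. The brightest probe set at or above the 40th percentile (4.35) stood for a gene, 13279 in all.

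The fit of group means over all 21 arrays used limma 3.58.1 and R 4.3.3 (17 residual degrees of freedom, 20.7 with the prior), with two-sided tests and Benjamini-Hochberg adjusted p-values; all 45037 probe sets were fitted likewise. On simulated data with independent noise, a change of 1 was recovered in 88% of genes in the TAC comparison of wild type, 92% in that of G4D, 87% in sham, 84% after TAC and 64% for the interaction, and one of 0.5 in 50%, 46%, 50%, 51% and 14%. The number of arrays limits the precision. The labels do not say whether replicates came from different animals, so the p-values measure only the spread between these samples, which may be technical.

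The members and lists were chosen with earlier results of these data known. Named were all members, and of each list in each comparison up to 4 called genes with the largest change, or the gene with the smallest p as a value where none was called and its values are given. Like genes were the 3 with the highest Pearson's r, without clone-type names. Upstream windows, motif searches and their shares came from RefSeq (GRCm38.p6). Alternatives were the values as deposited, median centring, filters at the 60th percentile or none, the mean of a gene's probe sets, array weights, eBayes with trend and robust settings, a fit of only the groups compared, a replicate block, the actin 3'-minus-5' difference as a covariate, and leaving out each array. One probe set that carries Foxo3 beside another symbol was not used.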

Additional observations from a re-analysis of the deposited data

Results flagged for a closer look

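Each member probe set was searched for arrays far from the rest of their group (Dixon's test at its 95% critical value). Of 100 groups of arrays tested, 7 held such an array, and chance gives about 1 in 20.

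In Akt1 (1416657_at) wild-type sham array 2 stood lowest at 9.14, with the nearest array at 9.26. In Akt2 wild-type TAC array 4 was lowest in a pair of probe sets, at 7.65 with the nearest at 7.87 (1424480_s_at) and at 3.91 with the nearest at 4.39 (1455703_at). Without that array the wild-type call of Akt2 was kept. In Pik3ca G4D TAC array 2 was lowest at 7.11, the nearest being 7.27 (1460326_at). G4D TAC array 4 was lowest in the Pik3ca sets 1429434_at, at 4.96 with the nearest at 5.67, and 1429435_x_at, at 4.36 with the nearest at 5.34, and these sets share a source transcript record. In Foxo1 (1416982_at) wild-type sham array 2 was highest at 7.14, with the nearest at 6.87.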

How the results depend on the processing

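Of 87 values of members and named genes, 36 were called, and 35 of those changed sign under no alternative; the exception was Akt1s1 in G4D. Calls depended most on scaling: 7 of the 36 were kept on the values as deposited and 14 on median-centred arrays, where the median gene moved by -0.096 and -0.03 with TAC in wild type, 0.31 and 0.10 with TAC in G4D, -0.28 and -0.12 in sham, 0.14 and 0.021 after TAC, and 0.42 and 0.15 for the interaction. The actin covariate kept 19. Of 51 values not called, 27 changed sign under some alternative. The causes were not tested.

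On the values as deposited, 95 genes were called with TAC in wild type (94.7% higher, where 70.6% of the reported calls were), 3 in sham, 64 after TAC and 6 for the interaction, and on median-centred arrays 388 (93.8% higher), 4, 185 and 10. With TAC in G4D the calls were within 1.5 times the reported number, but 97.8% and 88.8% of them were higher, beside 58.6%. After TAC the share higher was 87.5% and 82.7%, beside 62.6%, and in sham 0% and 25%, beside 57.1%. Called members came to 0 under both in the TAC comparisons and after TAC. Changes of sign on the values as deposited were: with TAC in G4D, Irs1 0.26, Akt1 0.35, Pik3ca 0.19, Foxo1 0.18 and Akt1s1 0.16; in sham, Pik3ca -0.29, Foxo1 -0.15, Foxo3 -0.034 and Sgk1 -0.10; after TAC, Pik3ca 0.12 and Foxo1 0.14; for the interaction, Akt1 0.30, Akt2 0.41, Pik3ca 0.40, Foxo1 0.29, Grb14 0.31, Pik3r1 0.17 and Deptor 0.11. On median-centred arrays they were Irs1 0.0498 and Akt1 0.14 with TAC in G4D, Pik3ca -0.14 in sham, Foxo1 0.016 after TAC, and Akt1 0.026, Akt2 0.14, Pik3ca 0.13, Foxo1 0.015 and Grb14 0.036 for the interaction.

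With the mean of probe sets, called members were 1 with TAC in wild type and 0 after TAC, and 0 genes were called for the interaction. Signs changed for Insr (0.054) and Akt1 (-0.031) with TAC in wild type, Insr (-0.052) with TAC in G4D, Insr (0.089), Pik3ca (-0.19) and Foxo1 (-0.029) in sham, Insr (-0.017) and Foxo3 (0.015) after TAC, and Insr (-0.11), Pik3ca (0.16) and Foxo1 (0.023) for the interaction. With the actin covariate 405 genes and 1 member were called with TAC in wild type, 1882 and 1 in G4D, and 1 gene for the interaction; Insr (0.024), Foxo1 (0.11) and Foxo3 (0.14) changed sign in wild type and Foxo1 (0.0048) after TAC. Array weights gave 829 genes and 2 members after TAC and 24 genes for the interaction, and turned Insr to -0.047 with TAC in G4D and -0.026 after TAC. In sham 15 genes were called with the filter at the 60th percentile and 12 with trend and robust settings; for the interaction these gave 20 and 6, and no filter gave 1.

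For arrays with the same replicate number, correlations of their deviations from the group means lay between -0.36 and 0.42. No pairs with different numbers were set beside them, so these values do not tell whether the numbers mark a batch or a pairing. With the replicate number as a block, 488 genes and 1 member (Akt2) were called with TAC in wild type, 3 genes in sham, 274 after TAC and 1 for the interaction, 10 of the 36 named calls were lost, and Foxo1 in wild type stood at 0.0196.

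Leaving out each array gave 564 to 1145 called genes with TAC in wild type (564 without sham array 1, 598 without TAC array 4), 1 to 27 in sham (1 without wild-type sham array 1 or 2, 27 without G4D sham array 2), 247 to 644 after TAC (247 without G4D TAC array 1, 281 and 284 without wild-type TAC arrays 3 and 1) and 1 to 29 for the interaction (29 without G4D TAC array 4). Called members ran from 1 to 2 with TAC in wild type, 2 to 3 in G4D and 1 to 2 after TAC. Values that crossed 0 ran from -0.065 to 0.028 for Foxo1 with TAC in wild type, -0.056 to 0.0601 for Insr with TAC in G4D, -0.091 to 0.046 for Irs1 and -0.029 to 0.068 for Pik3ca in sham, and -0.017 to 0.065 for Insr, -0.12 to 0.018 for Pik3ca and -0.092 to 0.0035 for Foxo1 after TAC.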
